A study of Gallus gallus with 60 samples.

Results

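The comparison described here set 15 hens of the white layer line LSL (Lohmann Selected Leghorn) against 14 hens of the brown layer line LB (Lohmann Brown), all kept in compartments of 54 hens. These are 29 of the 60 hens of the series, and the others were 28 hens from compartments of 36 and 3 LB hens that were left out. Each hen, 65 to 67 weeks old, gave RNA of the posterior cerebrum for 1 Affymetrix chicken array. The members were found by the group size and line in the sample labels. LB hens 7, 8 and 16 belong to the same compartments but were left out, because signal from the 5' end of actin RNA was lost in them. The 5' minus 3' value of actin (log2) was -1.69 to -2.89 in these hens and -0.37 to 0.17 in the 14 LB hens used. It was -1.33 in LSL hen 9 and -0.36 to 0.20 in the other 14 LSL hens. The right side of the cerebrum was sampled in 26 of the 29 hens and the left side in LB hens 43 and 46 and LSL hen 51. Both lines had the same feed in a small group housing system, with the lines in separate compartments. The compartment and tier of single hens are not given in the labels, so the effects of line and compartment cannot be told apart and the standard errors treat hens as independent. The hens had been picked to include stressed and unstressed layers by their handling behaviour, plumage and skin lesions, and the labels do not say which hen was which.

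LSL and LB are commercial laying hybrids of separate breeding stock, the former laying white and the latter brown eggs. The cerebrum of a bird is made up mainly of the pallium, which serves perception, learning and the control of behaviour, and of the striatum below it. A piece of this tissue holds neurons, astrocytes, oligodendrocytes, microglia and the cells of blood vessels. An array probe set is a group of short probes for 1 stretch of a transcript, so that several probe sets of a gene read different stretches or transcript ends.

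The deposited values are log2 values in which the median of each probe set is 0 among hens 1 to 30 and again among hens 31 to 60. They therefore give differences between hens of the same array set and no level of expression, and the tissue could not be checked by the level of its markers. The first array set held 8 LSL and 4 LB hens of this comparison and the second 7 LSL and 10 LB hens. Every difference is LSL minus LB from limma with the array set as a block, adjusted by Benjamini-Hochberg over 38535 probe sets, with a threshold of 0.05. Values of single hens are given relative to the midpoint of both line means in the hen's own array set unless stated otherwise. In bulk tissue, fewer cells of a type and less RNA per cell cannot be told apart.

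In compartments of 54, 2208 probe sets (5.73%) had higher values in LSL hens and 2195 (5.70%) had lower ones, together 11.4% of those tested. Most differences were small. The median size was 0.25 (log2), with 3721 of the 4403 under 0.5. Past 2-fold, a log2 difference of at least 1, lay 77 higher probe sets (0.200%) and 67 lower ones (0.174%). The 102 of these 144 probe sets that carry 1 gene symbol stood for 95 genes. Hierarchical clustering over all 38535 probe sets into 2 clusters placed 29 of 29 hens with their line.

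KCNA2, NDUFS3 and AKR7A2 were higher in every LSL hen than in any LB hen. KCNA2 is a voltage-gated potassium channel of axons that shortens firing. Its LSL hens lay from 0.56 to 1.35 with a median of 0.80, and its LB hens from -1.19 to -0.52 with a median of -0.89. The lowest LSL hen thus stood 1.08 above the highest LB hen. The difference was 1.75 (3.37-fold, standard error 0.08, adjusted p = 2.72e-16 in limma), and it was 1.55 among hens 1 to 30 and 1.88 among hens 31 to 60. NDUFS3, a core subunit of respiratory complex I, ran from 0.43 to 1.31 in LSL hens (median 0.76) and from -0.94 to -0.65 in LB hens (median -0.84). Its difference was 1.64 (3.11-fold, standard error 0.08, adjusted p = 1.75e-15 in limma). AKR7A2, an aldo-keto reductase that detoxifies aldehydes, had LSL hens between 0.40 and 0.67 and LB hens between -0.71 and -0.29. Its medians were 0.53 and -0.58, and the difference of 1.09 (2.13-fold) had a standard error of 0.04 (adjusted p = 2.14e-17 in limma). Each of these genes has 1 probe set on the array.

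ARL2BP, SBDS and UMPS were also higher in each LSL hen than in every LB hen. ARL2BP, which binds the GTPase ARL2, lay between 0.38 and 1.68 in LSL hens (median 1.33) and between -2.06 and -0.55 in LB hens (median -1.32). It differed by 2.64 (6.23-fold, standard error 0.15, adjusted p = 9.13e-14 in limma). SBDS, which frees the large ribosomal subunit for translation, ranged from 0.38 to 1.52 in LSL hens (median 1.14) and from -1.31 to -0.18 in LB hens (median -1.07), a difference of 1.92 (standard error 0.13). UMPS, which makes the pyrimidine nucleotide UMP, ranged from 0.18 to 1.99 (median 0.69) and from -1.35 to -0.40 (median -1.01), a difference of 1.85 (standard error 0.17). No hen of either line entered the range of the other at these probe sets. Further probe sets of ARL2BP passed at 0.55 and did not pass at 0.06 and 0.08. The further one of UMPS showed 0.08 and did not pass.

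SLC4A1AP, LYG2, ZNHIT3 and GAK were lower in every LSL hen than in any LB hen. SLC4A1AP encodes kanadaptin, a protein with a forkhead-associated domain. LSL hens lay between -1.98 and -1.42 with a median of -1.72 and LB hens between 1.23 and 2.65 with a median of 1.50. The difference of -3.41 corresponds to a level 10.6-fold lower in LSL (standard error 0.14, adjusted p = 2.50e-17 in limma), and the gap between the lines was 2.65. LYG2, a goose-type lysozyme, fell by 2.11 on the log2 scale (standard error 0.20). Its LSL hens ranged from -1.97 to -0.51 (median -1.02) and its LB hens from -0.16 to 2.35 (median 0.88). ZNHIT3, a zinc finger HIT protein, fell by 1.74 (standard error 0.10), with LSL hens between -1.33 and -0.32 (median -0.96) and LB hens between 0.40 and 1.21 (median 0.89). GAK, a kinase that helps to strip the clathrin coat from vesicles, fell by 1.68 (standard error 0.11), with LSL hens between -1.65 and -0.19 (median -0.75) and LB hens between 0.50 and 1.10 (median 0.86). Over the whole array, 199 probe sets (0.516%) showed no overlap between the 15 LSL and the 14 LB hens, 129 higher and 70 lower in LSL. This count was made after each array set was shifted to the midpoint of its line means, and on the deposited values as given it was 129. Of the 199, 57 were among the 144 past 2-fold and 24 had a gap of at least 0.5.

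**Figure D1:**
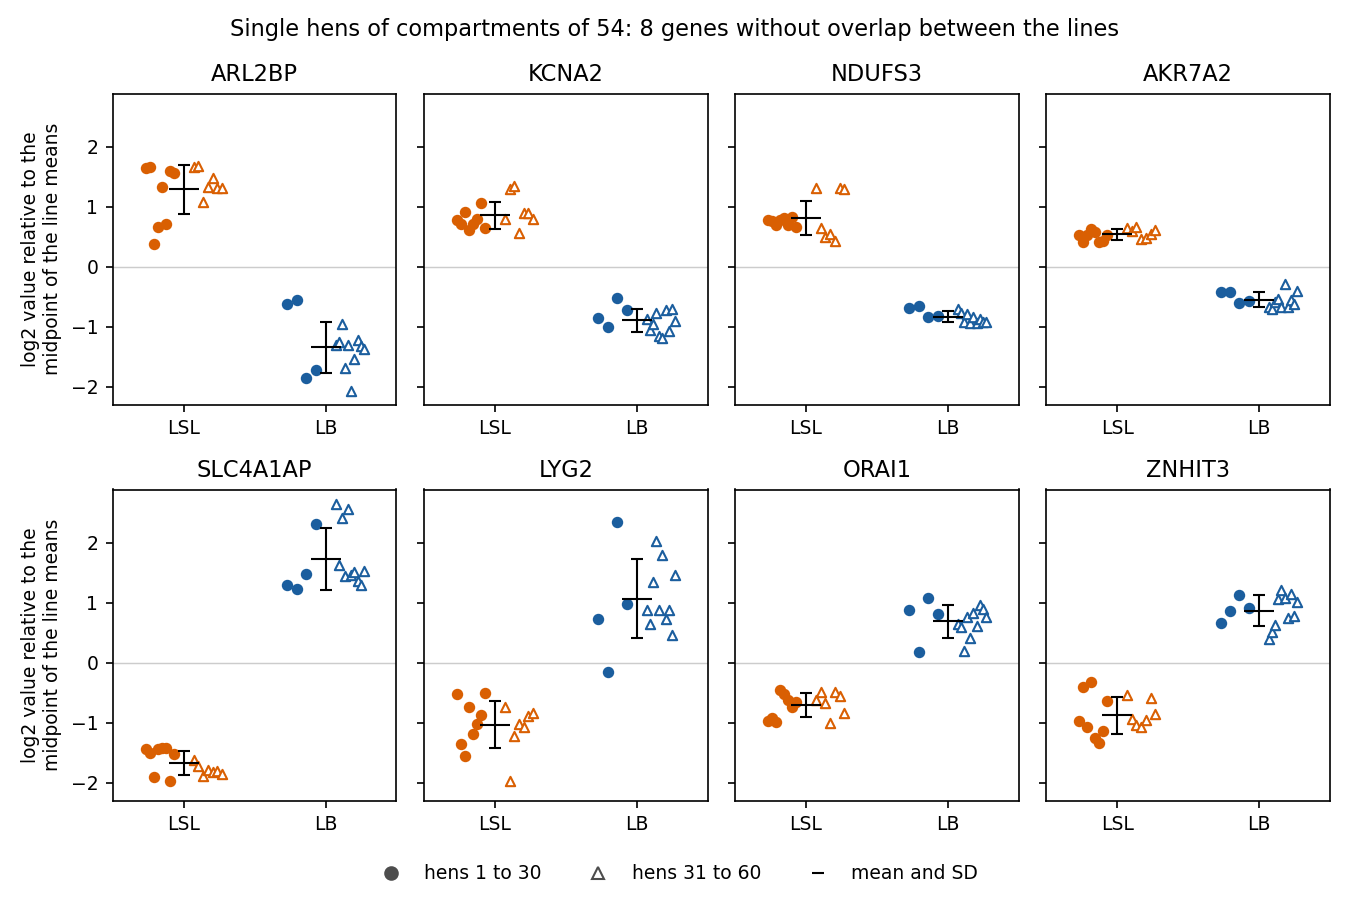
Log2 values of single hens in compartments of 54 (y axis, relative to the midpoint of the line means in each array set) for 8 named genes. Filled circles are hens 1 to 30, open triangles hens 31 to 60, and the bar is the mean with the SD over 15 LSL or 14 LB hens. In each panel every hen of one line lies beyond every hen of the other, by 2.65 in SLC4A1AP and 1.08 in KCNA2.

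At several probe sets with large mean differences, the hens of 1 line fell into groups with separate levels. For these genes the deposited values within an array set are given. SRI encodes sorcin, a calcium-binding protein that dampens release from calcium stores, and its probe set had the largest difference of the comparison, 6.12 (69.7-fold, standard error 0.74, adjusted p = 5.36e-07 in limma). In the second array set the 7 LSL hens ranged from 6.73 to 7.73 and the 10 LB hens from -0.43 to 0.04. Among hens 1 to 30, 6 LSL hens lay between 2.12 and 2.39, whereas LSL hens 9 and 22 lay at -4.96 and -4.74, close to LB hens 13, 23 and 29 (-4.86 to -4.54). LB hen 25 lay between these levels at -0.06. In that array set alone the difference, with a standard error of 1.56, did not pass (adjusted p = 0.269 in limma). Hen 9 also has the lowest actin 5' minus 3' value of the LSL hens, and without it the difference was 6.46. Both further probe sets of SRI showed 0.02 and 0.07 and did not pass.

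SUCLG2, a subunit of the succinyl-CoA ligase of the citric acid cycle, had a difference of 3.15 (8.88-fold, standard error 0.43, adjusted p = 3.63e-06 in limma). All 8 LSL hens of the first array set lay between -0.11 and 0.50, above the 4 LB hens at -4.18 to -3.98. In the second array set, LSL hens 37, 38, 47 and 52 lay between 3.80 and 4.22, while LSL hens 51, 56 and 60 (-0.28 to -0.10) lay inside the LB range of -0.33 to 0.02. The SD over LSL hens was 1.57, against 0.11 over LB hens. Of the 3 further probe sets of SUCLG2, 1 was lower by a log2 difference of -0.58 (-0.83 in compartments of 36), and the others showed -0.14 and -0.09 and did not pass.

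ASPH, a hydroxylase of the endoplasmic reticulum whose gene also encodes junctin, a partner of the calcium release channel, fell by 2.41 and by 2.35 at a pair of probe sets (standard errors 0.66 and 0.65, adjusted p = 0.0140 and adjusted p = 0.0147 in limma). At the first of them, LSL hens 9, 15, 22 and 24 lay between -5.90 and -5.39, and LSL hens 5, 14, 17 and 30 between -0.43 and -0.18. LSL hen 38 of the second array set lay at -6.35 and its 6 line mates between -0.99 and -0.62. The second of these probe sets put the same 5 hens in the low group. The 10 hens above them still lay below every LB hen of their array set, where LB values began at 0.52 and -0.03. The LSL line thus held 10 hens slightly below and 5 hens far below the LB hens.

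BG8, of the butyrophilin-like BG family of the chicken MHC, fell by 3.26 (standard error 0.50, adjusted p = 2.58e-05 in limma), with exceptions in both lines. LSL hens 9, 14 and 30 lay between -0.09 and 0.41 and the other 5 LSL hens of their array set between -4.45 and -3.39. LB hen 58 lay at -3.14, below the 7 LSL hens of its array set (-3.06 to -2.30), and the 9 other LB hens of that array set lay between 0.00 and 1.59. Further probe sets of BG8 passed at -0.71 and -0.18, and the others lay between -0.17 and -0.02 and did not pass. In CA5A, a mitochondrial carbonic anhydrase, the LB line was split. LB hens 43, 53, 57 and 58 lay between -2.91 and -2.67 and their 6 line mates of the second array set between 0.95 and 1.32, and in the first array set 2 LB hens lay on either side of a gap of 3.09. LSL hens lay between -0.88 and 1.36, and the line difference was 0.18 (standard error 0.50, adjusted p = 0.869 in limma). In compartments of 36 this CA5A probe set was lower in LSL, by a log2 difference of -1.41 (adjusted p = 0.0341 in limma). LSL hen 22 was in the low group in SRI, ASPH and BG8, hen 9 in SRI and ASPH, and hens 15 and 24 in ASPH and BG8. Of the 8 LSL hens of that array set, the low group held 2 in SRI, 4 in ASPH and 5 in BG8. In SRI it lay at the level of LB hens and in BG8 it was the more common LSL level. Whether hens are shared more often than such group sizes give was not tested.

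**Figure D2:**
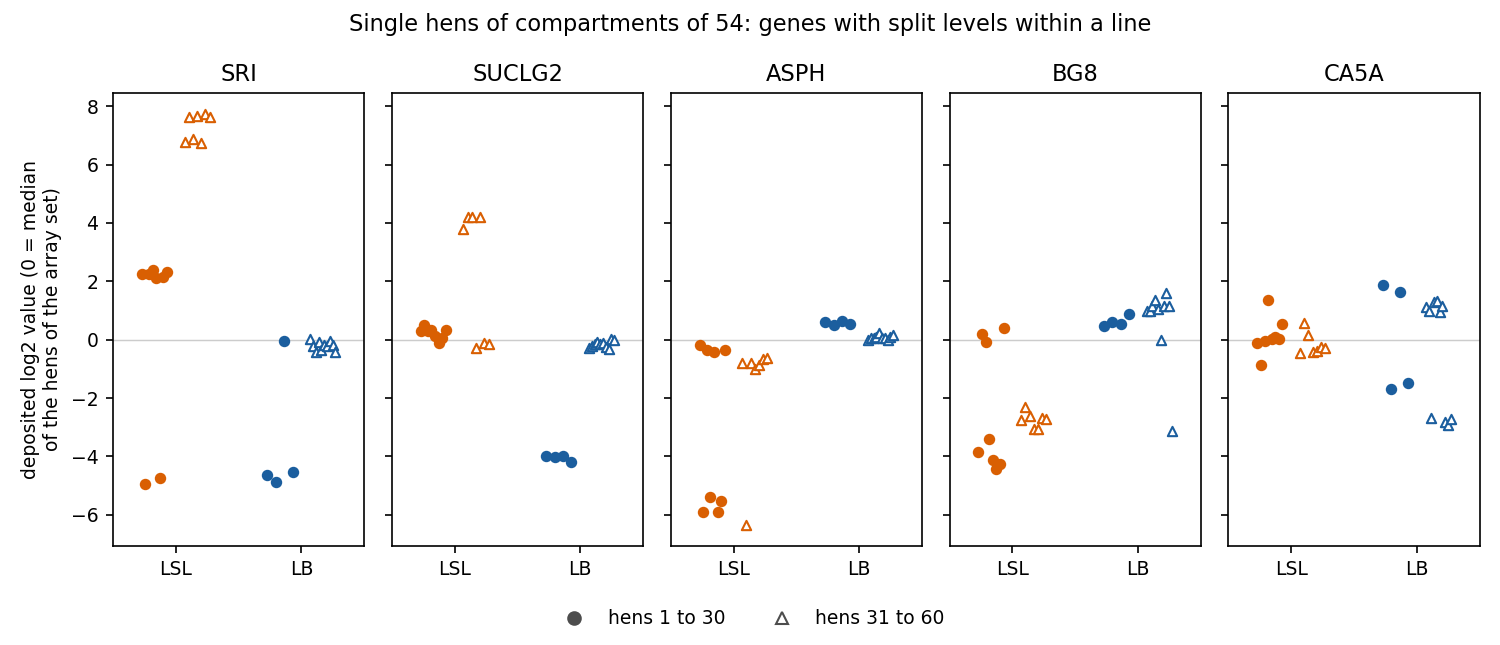
Deposited log2 values of single hens (y axis, 0 being the median of the hens of the array set) for 5 genes with separate levels within a line. Filled circles are hens 1 to 30 and open triangles hens 31 to 60. In SRI, 2 LSL hens lie at the level of the LB hens, in ASPH 5 LSL hens lie far below the rest, and in CA5A the LB hens form an upper and a lower group.

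SRI and ASPH belong to the handling of calcium. Of 36 measured genes of calcium stores and calcium binding, each taken by 1 probe set, 3 were higher and 5 lower, against 7.36% and 6.62% of all 13009 genes. The median difference of the list was 0.00, beside -0.02 over all genes. ORAI1, the pore of the channel that refills calcium stores, lay between -1.01 and -0.45 in LSL hens (median -0.65) and between 0.19 and 1.08 in LB hens (median 0.76). It fell by 1.39 (standard error 0.09, adjusted p = 6.13e-13 in limma) with no overlap between the lines. CALR, a chaperone that binds calcium in the endoplasmic reticulum, was higher by 0.74 (standard error 0.09), with 13 of 15 LSL hens above every LB hen. MICU2, a gatekeeper of the mitochondrial calcium uniporter, was higher by 0.61, while the calcium release channels RYR2 and ITPR1 and the calcium-binding S100A11 had differences of -0.36, -0.16 and -0.38.

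Of the 32 gene lists, that for MHC class I presentation had the largest share of higher members. The study had already reported this theme as higher in LSL from arrays that include these. The rank is thus no separate support for it. Of 10 measured genes of MHC class I and peptide loading, 4 were higher and 0 lower in limma (at an unadjusted p under 0.05, 5 and 0), against 7.36% of all genes higher, and the median was 0.12. The methods' t-test and Welch's test also gave 4 and 0. BF2, a classical class I heavy chain that shows peptides to T cells, lay between -0.06 and 1.95 in LSL hens (median 0.97) and between -1.78 and 1.02 in LB hens (median -1.13). The lines overlapped, with 7 of 15 LSL hens above every LB hen, and the difference was 1.89 (3.70-fold, standard error 0.25, adjusted p = 2.75e-06 in limma). Elsewhere in BF2, 1 probe set passed at 0.36, and those at 0.06 and -0.09 did not pass. MHCY4, which lies in MHC-Y, a second cluster of class I genes, had a difference of 1.50 (standard error 0.28), with 0.82 among hens 1 to 30 and 1.95 among hens 31 to 60. ERAP1, which trims peptides, was higher by 0.39 (standard error 0.06), and CALR, given above, is the fourth. Genes of this family are near copies of each other, and the BF2 and MHCY4 probe sets are of the kinds that can match related transcripts. The partner chain B2M had a difference of 0.01 (standard error 0.11), and TAP1 and TAP2, which carry peptides into the endoplasmic reticulum, showed 0.06 and 0.09. Among 17 genes listed under MHC class II presentation and its control, 2 were higher and 2 lower, against 7.36% and 6.62% of all genes. DMA and DMB2, which load class II molecules, fell by 0.57 and 0.22. The 2 higher ones were the transcription factors RFX3 and CREB1, by 1.71 and 0.87 at 1 probe set each. Neither encodes a class II molecule or a loading molecule, and whether either acts on class II genes was not tested. The other probe set of RFX3 showed -0.02, those of CREB1 lay between -0.02 and 0.06, and none of these passed. Of 23 interferon-induced genes 0 were higher and 2 lower, with 0 and 6 at an unadjusted p under 0.05 in limma, and the same 0 and 2 in number by the methods' t-test and Welch's test. They were IRF7 (-0.26) and ZNFX1 (-0.28).

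Of 53 measured subunits of the respiratory chain and ATP synthase 8 were higher and 1 lower, against 7.36% and 6.62% of all genes, with a median of 0.04. With all 17 LB hens 7 were higher and 3 lower. Besides NDUFS3, the larger rises were those of NDUFA12 (0.99, standard error 0.17), COX5A (0.47) and NDUFB3 (0.40), of which the second is part of cytochrome c oxidase and the others of complex I. Further probe sets of NDUFA12 (0.02 and 0.08) and COX5A (0.08) did not pass. Those of NDUFB3 passed at 0.16 and 0.20 and not at 0.09. NDUFA7, another subunit of complex I, had a difference of -0.35. In compartments of 36 the same list had 4 higher and 3 lower members and a median of 0.00. Of 26 genes of the citric acid cycle and pyruvate entry 5 were higher and 1 lower, beside the same shares of all genes. The higher ones included SUCLG2, by its probe set at 3.15, and ACO1, the cytosolic aconitase (0.36). The lower one was PDK1, a kinase that switches off pyruvate dehydrogenase, with LSL hens between -1.20 and -0.03 and LB hens between 0.00 and 0.86 (difference -1.08, standard error 0.13). Over all 53 probe sets of the list, however, 5 were higher and 4 lower, with the SUCLG2 probe set at -0.58 among the lower ones. Of 46 genes of carbonyl reduction and detoxification 8 were higher and 3 lower, again beside 7.36% and 6.62% of all genes. CBR3, a carbonyl reductase, was higher by 1.11 (standard error 0.16), with 14 of 15 LSL hens above every LB hen and LSL hen 15 at -1.12 below all of them. ABCB1, a drug efflux pump of the blood-brain barrier, fell at both of its probe sets, by 1.67 and 1.34 (standard errors 0.27 and 0.22). LSL hens lay between -2.28 and 0.37 (median -0.46) and LB hens between 0.20 and 1.65 (median 1.05) at the first of them, and the difference was -0.67 among hens 1 to 30 and -2.31 among hens 31 to 60. In the second array set LSL hens 38, 51, 56 and 60 lay below a gap of 2.08 and LSL hens 37, 47 and 52 above it.

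Of the genes for traffic between endosomes and the cell surface, 4 of 47 were higher and 4 lower, against 7.36% and 6.62% of all genes. Over all 97 probe sets of these genes 12 were higher and 4 lower, against 1730 and 1576 of 27178 with 1 symbol. RAB22A, a GTPase that acts on early endosomes, was higher at 2 of 3 probe sets, by 2.56 and 1.83 (standard errors 0.48 and 0.26). At the first, LSL hens lay between 0.81 and 1.94 (median 1.12), whereas LB hens spread from -3.97 to 0.95 (median -0.89). The width was thus on the LB side, where the hens were split. LB hens 13 and 23 lay below a gap of 2.35 in the first array set. In the second, LB hens 42, 43 and 44 lay below a gap of 2.32. VPS26B, a subunit of the retromer that brings receptors back from endosomes, fell by 1.81 (standard error 0.16), with 14 of 15 LSL hens below every LB hen and LSL hen 14 at 0.94, within the LB range of 0.57 to 1.48. VPS39 fell by 0.71 and VPS29 by 0.35, while VPS35, VPS33B and RAB4A were higher by 0.14, 0.18 and 0.33, and GAK, given above, is the fourth lower one. Further probe sets of VPS39 (-0.11, -0.03 and 0.11) did not pass.

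SYT1, the calcium sensor of fast transmitter release, fell at each of its 3 probe sets, by 0.90, 0.82 and 0.69 (standard errors 0.14, 0.11 and 0.11). SYT9, another vesicle sensor, fell by 1.50 and 1.27 at both of its own. At the first SYT1 probe set LSL hens lay between -1.57 and 0.25 and LB hens between -0.03 and 0.97, and 14 of 15 LSL hens were below every LB hen. Of 30 genes of synaptic vesicle release 3 were higher and 3 lower. Over all genes, 7.36% were higher and 6.62% lower. Of 30 receptors of glutamate and GABA 3 were higher, GRIN3A (0.46), GRM3 (0.43) and GABRA3 (0.34), and 2 were lower, GRIK1 (-0.42) and GRIK3 (-0.33). Further probe sets of GRIN3A (-0.11 and -0.07), GRM3 (-0.14), GABRA3 (0.17) and GRIK1 (-0.23 and -0.03) did not pass. MEF2C, a transcription factor of pallial neurons, fell at its 3 probe sets by 0.98, 0.93 and 0.89, and CBLN1, a secreted organizer of synapses, fell by 0.94 (standard error 0.08) with no overlap. Of 15 glutamatergic and 14 GABAergic neuron markers 0 passed in limma, the methods' t-test or Welch's test, and 1 and 4 had an unadjusted p under 0.05 in limma. Over all probe sets of these markers, 1 of 25 glutamatergic ones was higher and 1 of 33 GABAergic ones lower. Among 20 markers of striatum and pallium regions 1 was higher and 2 lower, with 1 and 7 at an unadjusted p under 0.05 in limma. Over all 49 probe sets of these markers 1 was higher and 7 lower, against 1730 and 1576 of 27178 with 1 symbol. The higher one belongs to PTPN5, which was lower at other probe sets. Among 14 markers of cerebellum and midbrain 0 were higher and 1 lower in limma, the methods' t-test and Welch's test. At an unadjusted p under 0.05 in limma these were 2 and 2. Of 34 genes of monoamines, 0 were higher and 4 lower in limma (1 and 6 at an unadjusted p under 0.05, 0 and 4 by the methods' t-test and 0 and 3 by Welch's test), COMTD1 of the catechol methyltransferase family (-0.85, standard error 0.12), the vesicle transporter SLC18A2 (-0.30) and the receptors HTR1F (-0.30) and ADRA1B (-0.24). The further probe set of SLC18A2 showed 0.01 and did not pass.

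Genes tied to stress and hormones differed in both directions. RCSD1, whose product is a target of stress-activated kinases, was higher by 1.24 (standard error 0.10) at 1 probe set with no overlap and showed -0.05 at the other. SGK1, a kinase induced by glucocorticoids, fell by 0.95 (standard error 0.24, adjusted p = 0.00738 in limma) at 1 probe set, with LSL hens between -1.37 and 0.42 and LB hens between -0.71 and 1.68, and showed 0.04 at the other. Against 7.36% higher and 6.62% lower over all genes, 2 of 18 genes of stress hormone signalling were higher and 2 lower. RCSD1 and SGK1, which the study had named from these data, are among them. RCSD1 is counted in this list as a kinase target and is not a gene of hormone signalling. The others were CRHBP, which binds corticotropin-releasing hormone (0.31, adjusted p = 0.04999 in limma), and CRHR1, the receptor of that hormone (-0.36, with -0.01 among hens 1 to 30 and -0.59 among hens 31 to 60). Of 37 heat shock proteins and chaperones 3 were higher, with HSPA9 at 0.45, and 1 lower, DNAJC5 at -0.81. Further probe sets of HSPA9 (0.02) and DNAJC5 (-0.08 and 0.13) did not pass. Of the circadian clock genes 2 of 21 were higher, NFIL3 (0.90) and ARNTL2 (0.43), and 2 lower. CSNK1E, a casein kinase that sets the pace of the clock, fell by 2.04 and 0.38 at both of its probe sets, and the first difference was -1.03 among hens 1 to 30 and -2.69 among hens 31 to 60. The LSL line was split there. In the first array set LSL hens 14 and 17 lay below a gap of 2.35, and the 6 others lay within the LB range. Of 18 genes of thyroid hormone action 2 were higher, NCOA2, a coactivator (0.88), and DIO2, which makes the active hormone (0.34). The NCOA2 difference was 0.21 among hens 1 to 30 and 1.32 among hens 31 to 60. Its other probe sets lay between -0.07 and 0.12, the other of DIO2 showed 0.17, and none of these passed. Of 21 genes of phosphate and bone mineral 0 passed in limma, the methods' t-test or Welch's test, and 1 had an unadjusted p under 0.05. Over all 38 probe sets of these genes 1 was lower. Of 60 cytosolic ribosomal proteins 5 were higher and 4 lower, and of 37 voltage-gated ion channels 2 each, with KCNH1 at 0.51 and CACNA2D2 at -0.32 beside KCNA2.

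Markers of other cell types that the samples could hold overlapped between the lines. The mean of each of 12 marker lists was computed per hen, and in each list the range of the LSL hens overlapped that of the LB hens. Overlap was the usual case, since only 0.516% of single probe sets showed none. It therefore does not show that cell composition was alike in the lines. For meninges, choroid plexus and fibroblasts it ran from -0.33 to 1.07 in LSL hens (median 0.02) and from -0.45 to 0.35 in LB hens (median -0.18). Of its 15 genes 1 was higher, MGP, a matrix protein of vessel walls (0.66, standard error 0.19), which did not pass in the methods' t-test or Welch's test. At an unadjusted p under 0.05 in limma 5 were higher and 0 lower, and the median was 0.19, with 11 of 15 positive. Red blood cell markers ran from -0.26 to 0.14 in LSL and from -0.28 to 0.25 in LB hens, and of 10 genes 0 passed in limma, the methods' t-test or Welch's test (2 lower at an unadjusted p under 0.05). Of 13 astrocyte markers 2 were lower, SPARCL1, a secreted matrix protein (-1.13, standard error 0.15), and HEPACAM (-0.15). Of 18 endothelial markers 3 were higher, led by SOX17 (0.61, standard error 0.18), and 2 were lower. The further probe set of SOX17 showed 0.08 and did not pass. Over all genes, 7.36% were higher and 6.62% lower. Of 12 oligodendrocyte markers 0 passed in limma, the methods' t-test or Welch's test, with 1 higher and 4 lower at an unadjusted p under 0.05. Over all 21 probe sets of these markers 1 was higher. Of 17 microglia and macrophage markers, 14 T cell markers and 14 B and plasma cell markers at most 1 was higher and 1 lower, by at most 0.30 in size, and the methods' t-test and Welch's test called 0 of the microglia and 0 of the T cell markers. Of the microglia and macrophage markers 1 was higher and 6 were lower at an unadjusted p under 0.05 in limma, with a median of -0.14 and 5 of 17 positive. TTR and SLC13A4, genes active in the choroid plexus and looked up after their values were seen, were high in LB hens 42 and 50 only among the LB hens of the second array set, by gaps of 2.68 and 2.87, and their line differences did not pass (-0.25 and -0.51). The part of cell composition in the line differences was not tested.

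**Figure D3:**
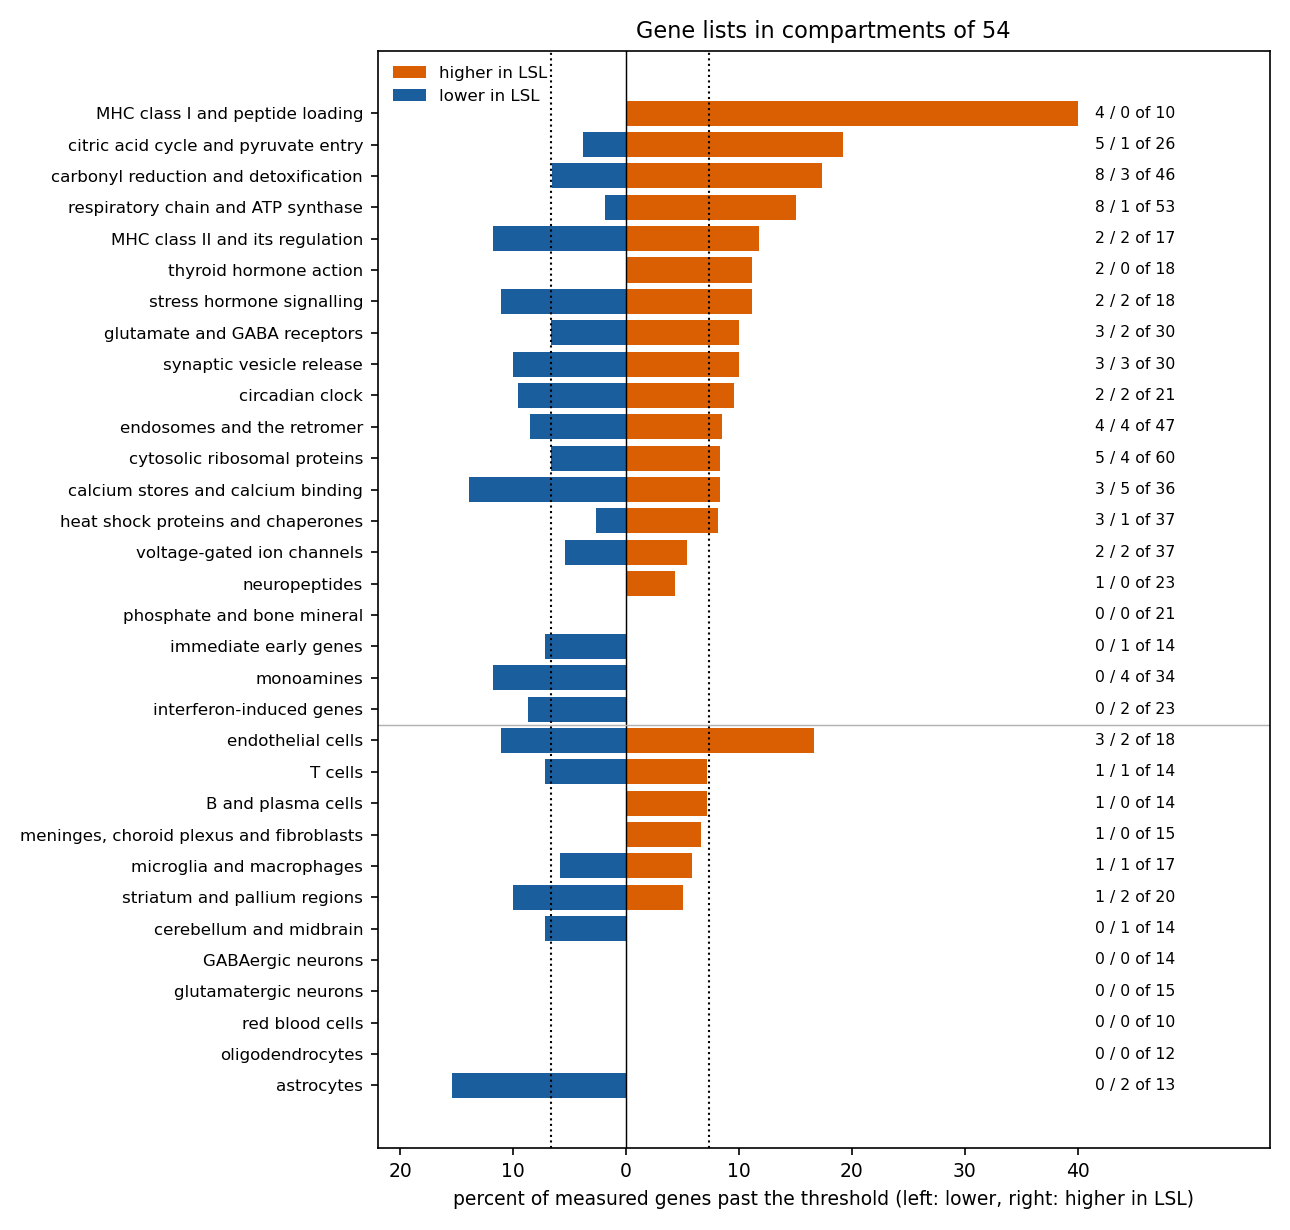
Percent of the measured genes of 32 lists that were past the threshold, lower in LSL to the left and higher to the right, with 1 probe set per gene and the counts beside each bar. Dotted lines mark the shares over all 13009 genes, 7.36% higher and 6.62% lower, and cell type markers stand in the lower block. The MHC class I list has 4 of 10 genes higher, and markers of neurons, oligodendrocytes and red blood cells have 0.

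Many differences were seen at a single probe set of a gene. For 70 of the 95 genes there were others, 179 probe sets under 2-fold or not past the threshold. Among them, 35 (19.6%) passed in the direction of the leading probe set, 17 (9.50%) in the opposite one and 127 did not pass, against 6.12% higher and 5.60% lower over the probe sets of all genes not among the 95. SLC4A1AP had 4 further probe sets between -0.07 and 0.16, of which 0 passed in limma and 1 had an unadjusted p under 0.05. The further one of SBDS showed -0.07. ZNHIT3 was higher by 0.24 and GAK by 0.14 at further probe sets that passed, against their falls at the leading ones. ASPH went both ways, with 3 of its 8 probe sets lower, 1 higher by 0.88 (standard error 0.10, no overlap) and 4 not past the threshold. ANK2, an ankyrin that anchors membrane proteins, was higher at 4 of 9 probe sets, by 1.21, 1.19, 0.86 and 0.19, and the others lay between -0.07 and 0.09. RPL21, a protein of the large ribosomal subunit, was higher at 3 of 5 probe sets (1.40, 0.58 and 0.33) and lower at 1 (-0.34). PTPN5, a phosphatase of striatal neurons, was higher by 1.17 at 1 probe set and lower at 2 others by log2 differences of -0.27 and -0.18. SYT1 and MEF2C stand on the other side, with probe sets that all fell by a like amount. Whether differences between the lines in transcript sequence or ends under the probes have a part in these patterns was not tested.

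**Figure D4:**
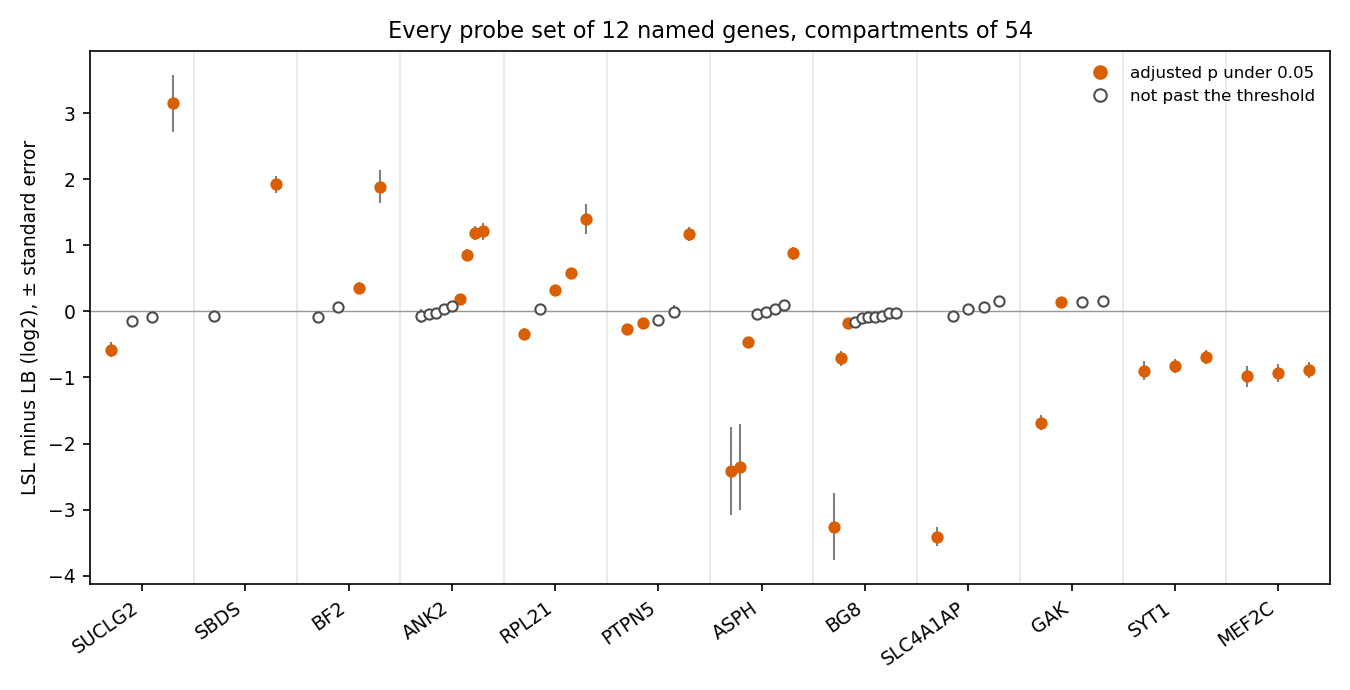
LSL minus LB in compartments of 54 (log2, y axis) with the standard error for every probe set of 12 named genes, filled where the adjusted p was under 0.05 and open where not. SYT1 and MEF2C fell at all 3 of their probe sets, whereas SLC4A1AP fell at 1 of 5 and ASPH fell at 3 and rose at 1 of 8.

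The comparison was set beside that of 13 LSL with 15 LB hens from compartments of 36, which shares no hens with it. There 3581 probe sets (9.29%) passed, 1493 higher (3.87%) and 2088 lower (5.42%). Of the calls in compartments of 54, 2120 were called in the same direction in compartments of 36 (48.1% of the 54-hen calls and 59.2% of the 36-hen calls) and 0 in the opposite direction in limma, where 12 had the opposite sign at an unadjusted p under 0.05. All 144 probe sets past 2-fold had the same sign in compartments of 36, 139 were called there and 108 were again past 2-fold. Their median size was 1.28 in compartments of 54 and 1.23 in compartments of 36. SRI differed by 6.02, SLC4A1AP by -3.22, KCNA2 by 1.57, NDUFS3 by 1.52 and AKR7A2 by 1.11 in compartments of 36. The test of the difference itself between group sizes called 0 probe sets in limma (0.00%), with a smallest adjusted p of 0.435. At an unadjusted p under 0.05 in limma there were 3523 (9.14%). The 5 probe sets past 2-fold that were not called in compartments of 36 were looked up after their values were seen. They belong to KIT, the receptor of stem cell factor (1.41 in compartments of 54 and 0.40 in compartments of 36), to CCDC84 (1.53 and 1.03), PRTFDC1 (1.37 and 0.96), and UBXN4 (1.31 and 0.75), and to no gene in the probe table (1.70 and 0.97). Each was positive in both group sizes, and for KIT the difference of 0.96 between group sizes had a standard error of 0.64 (unadjusted p = 0.139 in limma). CSNK1E differed by -2.04 and -1.27 and COMTD1 by -0.85 and -1.43, and neither difference between group sizes passed.

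**Figure D5:**
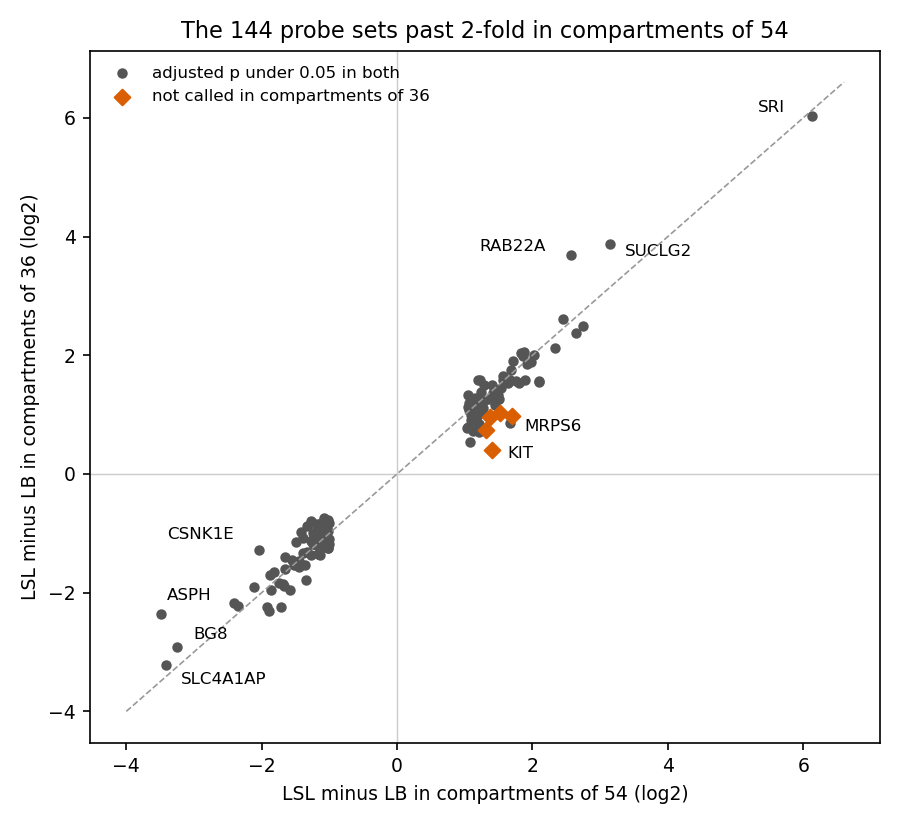
Line difference (LSL minus LB, log2) of the 144 probe sets past 2-fold in compartments of 54 (x axis) against that in compartments of 36 (y axis), with the line of equal values dashed. All 144 lie in the quadrants of equal sign, and the 5 diamonds, KIT among them at 1.41 and 0.40, were not called in compartments of 36.

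Within the array sets the large differences held their sign. Each of the probe sets past 2-fold, which were chosen over the same hens, had the same sign among hens 1 to 30 and hens 31 to 60. Of these, 106 were called in the first array set alone and 133 in the second, 100 in each. The test of the line difference between the array sets passed for 0 probe sets in limma, with 2001 at an unadjusted p under 0.05. Of the 95 genes past 2-fold, 94 were placed in the gene order of RefSeq, and 2 pairs were next to each other among genes on the array. PPP1R3D, a glycogen-targeting subunit of protein phosphatase 1, and FAM217B were both higher, by 1.54 and 1.30, and MHCY4 and BG8 went opposite ways.

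LB hens 7, 8 and 16 moved the count of probe sets that passed. With all 17 LB hens 5718 probe sets (14.8%) were called, 3722 of them shared with the 4403. Of the 1996 called only with these hens 1297 were lower in LSL. Compared with the 4 other LB hens of their array set, these 3 hens had 984 probe sets lower and 243 higher by 2-fold or more. All 144 probe sets past 2-fold were also called with the 17 LB hens. BF2 moved from 1.89 to 1.52 and SRI from 6.12 to 5.78. PTP4A1, a phosphatase, and MAP2K1, a kinase of the MAP kinase cascade, moved most among probe sets with 1 symbol, from 0.04 to 0.94 and from -0.15 to 0.71.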

How the data were processed

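Image analysis was done by the authors in GCOS 1.2, and GeneSpring GX 11.5 gave the deposited log2 values after RMA with quantile normalization. That each probe set has a median of 0 in both array sets was found from the values (tolerance 1e-06), and the labels do not name the sets. Levels, a filter on low expression and signal over background cannot be had from centred values, so all 38535 probe sets were tested, and the number of arrays limits the precision. The fits used limma 3.58.1 under R 4.3.3 (lmFit and eBayes with array set as a block), 2-fold being a log2 difference of at least 1, and were tested on simulated data. Counts and gene lists were tabulated in Python 3.11.15 with pandas 2.3.3. The contrast between group sizes used the 60 hens without LB hens 7, 8 and 16. Replicates are single hens. By the platform annotation 27178 probe sets carry 1 symbol, 177 several and 11180 none, and 26863 of the first were matched to RefSeq (GRCg7b), used for names and gene order only. Gene lists took the probe set of each gene with the largest SD within line and array set. The named probe sets are the 12 largest rises and falls with 1 symbol and up to 4 passing members per list. They also take in 8 genes of the study and up to 6 probe sets with the widest gap within a line. Added to these are up to 6 most moved by LB hens 7, 8 and 16. Not all of them are described above. Among the largest, LOC770574 (2.45), LMBR1 (2.10), LOC770705 (1.98), TMEM164 (1.88), FAM171A1 (-1.92) and HAUS3 (-1.72) are not, and the lines overlapped at each. RHOG2, with a gap of 4.46 within the LSL line, is not either, and its line difference did not pass (-1.65). Some further genes, among them list members that did not pass, were named after their values were seen. The hens, lists and rules were chosen with earlier results of these data known. Alternatives changed the hens, the block, the test, the normalization and the covariates. A result withheld for evaluation is not reported here.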

Additional observations from a re-analysis of the deposited data

How the results depend on the processing

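Of the 102 named probe sets that passed, 0 changed direction under any alternative run on them. Because they were largely picked from these same hens, a kept direction is weak support. Of the 102, 37 still passed in every alternative run on them, and 65 when hens 1 to 30 alone is set aside. Within the array sets taken alone 617 probe sets were called among hens 1 to 30, where 4 LB hens remain, and 2737 among hens 31 to 60, against 4403, and 63 and 28 of the 102 no longer passed. The count past 2-fold stayed within 1.5 times of 144 under each alternative. On the deposited values as given 129 probe sets showed no overlap between the lines, and with a gap of at least 0.5 24 did, against 199. With quantile normalization 57% of the calls were higher in LSL, against 50.1%, and among hens 1 to 30 alone 57.4%. With all 17 LB hens 15 of the 102 no longer passed, with the actin 5' minus 3' covariate 9, on the right side only 14 and without LSL hen 9 6, the last having been added after seeing the data together with all 17 LB hens and the covariate (5331 called). The methods' t-test called 4429 after Benjamini-Hochberg and 131 past 2-fold, and Welch's test 4332 and 131. The contrast between group sizes called 0 probe sets in limma under each alternative. The cause of these changes was not tested. No paired analysis was possible because hen numbers were not repeated between the lines.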
